A study of Homo sapiens with 6 samples.

Results

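Keratins form the intermediate filaments of epithelial cells, and 9 keratin genes that distinguish luminal from basal cells were followed in 6 human prostate cancer cell lines. The genes were chosen by name: KRT8, KRT18 and KRT19, typical of luminal cells; KRT7 and KRT23, found in ductal and other simple epithelia; and KRT5, KRT14, KRT15 and KRT17, typical of basal cells. Each of the 9 names had 1 entry in every deposited table, out of 51698 entries, and the 9 are part of 54 keratin genes found by symbol. They were chosen as a gene family, with earlier results of these data known.

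LnCaP, VCaP and LAPC4 are castration-sensitive lines derived from metastases of prostate cancer and were used as parents. LnCaP-abl, VCaP-CR and LAPC4-CR carry the parents' names and are labelled castration resistant. LnCaP and LAPC4 were kept in RPMI with 10% FBS and VCaP in DMEM with 10% FBS, whereas all 3 resistant lines were kept in RPMI with 10% charcoal-stripped FBS, a serum low in steroids, and 1X B27 supplement. Medium and state therefore changed together in every pair and cannot be told apart. None received a further treatment. Each line gave 1 library, so there are no replicates within a line, and each line is a single culture as a model.

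A keratin filament is built from equal parts of a type I and a type II keratin, which pair as heterodimers. KRT8 (type II) and KRT18 (type I) are the main pair of simple epithelia, including the luminal cells that line prostate glands, and KRT19 is a small type I keratin that also pairs with KRT8. KRT5 (type II) and KRT14 (type I) are the main pair of basal cells, which sit beneath the luminal layer and are marked by the transcription factor p63, encoded by TP63.

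Short reads of keratin genes can be difficult to place, because KRT8 and KRT18 have many processed pseudogenes and KRT14, KRT16 and KRT17 resemble each other. The sequences are shown first since they bear on the counts below. KRT8 and KRT8P45, a copy on chromosome 1, were identical at 1382 of 1446 aligned bases (95.6%), with 1 run of 114 identical bases. The KRT8 coding sequence has 1536 bases. A 90-base stretch from the middle of the KRT18 coding sequence was set beside the same stretch of KRT18P38, a copy on chromosome 6, 5′ to 3′ and with the bases that differ in capitals.
KRT18: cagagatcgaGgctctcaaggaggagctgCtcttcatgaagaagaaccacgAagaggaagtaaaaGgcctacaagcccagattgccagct
KRT18P38: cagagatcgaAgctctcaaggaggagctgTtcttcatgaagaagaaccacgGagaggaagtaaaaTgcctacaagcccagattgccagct
Here 4 of 90 bases differed, and the identity over 1267 aligned bases was 91.9%. For the basal type I keratins, the same stretch of KRT14, KRT16 and KRT17 is given with every position that differs among the 3 genes in capitals.
KRT14: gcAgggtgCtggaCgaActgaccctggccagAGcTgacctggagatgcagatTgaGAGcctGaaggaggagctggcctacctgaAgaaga
KRT16: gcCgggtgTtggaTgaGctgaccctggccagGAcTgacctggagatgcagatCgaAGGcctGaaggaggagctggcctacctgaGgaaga
KRT17: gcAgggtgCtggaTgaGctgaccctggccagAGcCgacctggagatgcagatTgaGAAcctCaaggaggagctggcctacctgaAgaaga
KRT16 differed from KRT14 at 10 of the 90 bases and KRT17 at 5. The sequences come from the GENCODE release 29 transcripts, and the longest coding sequence of each gene was used.

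The share of a coding sequence that recurs letter for letter in transcripts of other genes differed widely among the members. Read length is not given in the sources used here, so stretches of 35 and 50 bases were examined. At 35 bases, 62.3% of the stretches of KRT8 and 65.3% of those of KRT18 recurred elsewhere, and at 50 bases 45.5% and 38.7%. KRT14 followed with 43% at 35 bases, of which KRT16 alone held 18.3% of all stretches, and KRT17 with 34.3%. The values were 8.91% for KRT5, 8.3% for KRT19, 4.94% for KRT15 and 4.22% for KRT7 at 35 bases, and KRT23 shared 0 of 1235 stretches. Counts of KRT19, KRT7, KRT15, KRT5 and KRT23 thus have fewer stretches in common with other genes than those of KRT8, KRT18, KRT14 and KRT17.

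The members lie in the type II keratin cluster on chromosome 12 and the type I cluster on chromosome 17, except that KRT18, a type I keratin, lies beside KRT8. In the deposited coordinates, KRT8 (ENSG00000170421) spans 51577238 to 51630005, KRT18 (ENSG00000111057) 51628922 to 51632952, KRT5 (ENSG00000186081) 51194626 to 51200738 and KRT7 (ENSG00000135480) 50912571 to 50948447, all on chromosome 12. On chromosome 17, KRT19 (ENSG00000171345) spans 36933395 to 36938086, KRT15 (ENSG00000171346) 36923521 to 36932307, KRT14 (ENSG00000186847) 36992057 to 36996699, KRT17 (ENSG00000128422) 37029215 to 37034620 and KRT23 (ENSG00000108244) 36332474 to 36347362. These are whole gene models, protein-coding in the deposited class, and hg18 is the build named in the submitters' processing notes. The KRT8 and KRT18 models overlap by 1084 bases (51628922 to 51630005), and KRT17 overlaps the plakoglobin gene JUP by 5403 bases. KRT7 overlaps the entries RP11-845M18.1, AC021066.1 and RP3-416H24.1, KRT23 overlaps AC004231.2, and KRT18 also overlaps AC107016.1. Whether counting used strand is not given in the sources used here, so reads in these overlaps cannot be assigned with certainty.

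Total counts ran from 8661337 in LnCaP to 22433655 in LAPC4-CR, and every resistant library was deeper than its parent. Levels are given as scaled FPKM, the deposited FPKM (fragments scaled to the length of the gene model and to the library total) divided by a library factor of 0.847 to 1.11, and intervals are exact 95% Poisson intervals that cover counting error only. Epithelial markers were present in every library: EPCAM, an epithelial adhesion molecule, lay between 24.1 and 105 scaled FPKM, and CDH1, the E-cadherin gene, between 33.6 and 116. Of 15 markers of stroma, endothelium and leukocytes, 14 lay between 0.0864 and 1.99 scaled FPKM throughout, none of the 15 was at 0 in all libraries, and their summed level was 4.74 to 9.4 in the sensitive and 6.21 to 54.5 in the resistant libraries. LUM, which encodes the matrix protein lumican, made up most of the highest sum with 50.2 scaled FPKM in VCaP-CR, against 3.94 in VCaP; its part in any keratin value was not tested.

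KRT8, the type II keratin of luminal cells, was abundant in all 6 lines and highest in the LAPC4 pair. Its level was 22.1 scaled FPKM in LnCaP (1025 counts) against 34.8 in LnCaP-abl (2061), 15.8 in VCaP (773) against 13.4 in VCaP-CR (1076), and 64 in LAPC4 (4144) against 93.3 in LAPC4-CR (11633). The level lay above that of 87.4% (VCaP-CR) to 98.6% (LAPC4-CR) of the 19951 protein-coding genes. No interval of one library overlapped that of another, the nearest neighbours being VCaP (14.7 to 16.9) and VCaP-CR (12.6 to 14.2).

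KRT18, the type I partner of KRT8, followed nearly the same order. It was at 31.2 scaled FPKM in LnCaP (929 counts) against 23.4 in LnCaP-abl (889), 23.3 in VCaP (732) against 17.7 in VCaP-CR (916), and 48.9 in LAPC4 (2032) against 73.7 in LAPC4-CR (5902). LnCaP-abl (21.8 to 24.9) and VCaP (21.6 to 25) could not be told apart, and the LAPC4 pair was again above the other 4 libraries. KRT18 exceeded 90.6% to 98.1% of protein-coding genes.

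KRT19 varied most among the abundant members. Its level was 1.6 scaled FPKM in LnCaP (33 counts) against 1.52 in LnCaP-abl (40), 15 in VCaP (328) against 8.55 in VCaP-CR (306), and 32.5 in LAPC4 (937) against 136 in LAPC4-CR (7568). The 3 line names thus formed 3 separate tiers, with LnCaP (1.1 to 2.24) and LnCaP-abl (1.08 to 2.06) not distinguishable from each other. KRT19 exceeded 49.8% of protein-coding genes in LnCaP-abl and 99.1% in LAPC4-CR, where it was the highest of the 9 members in scaled FPKM.

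**Figure D1:**
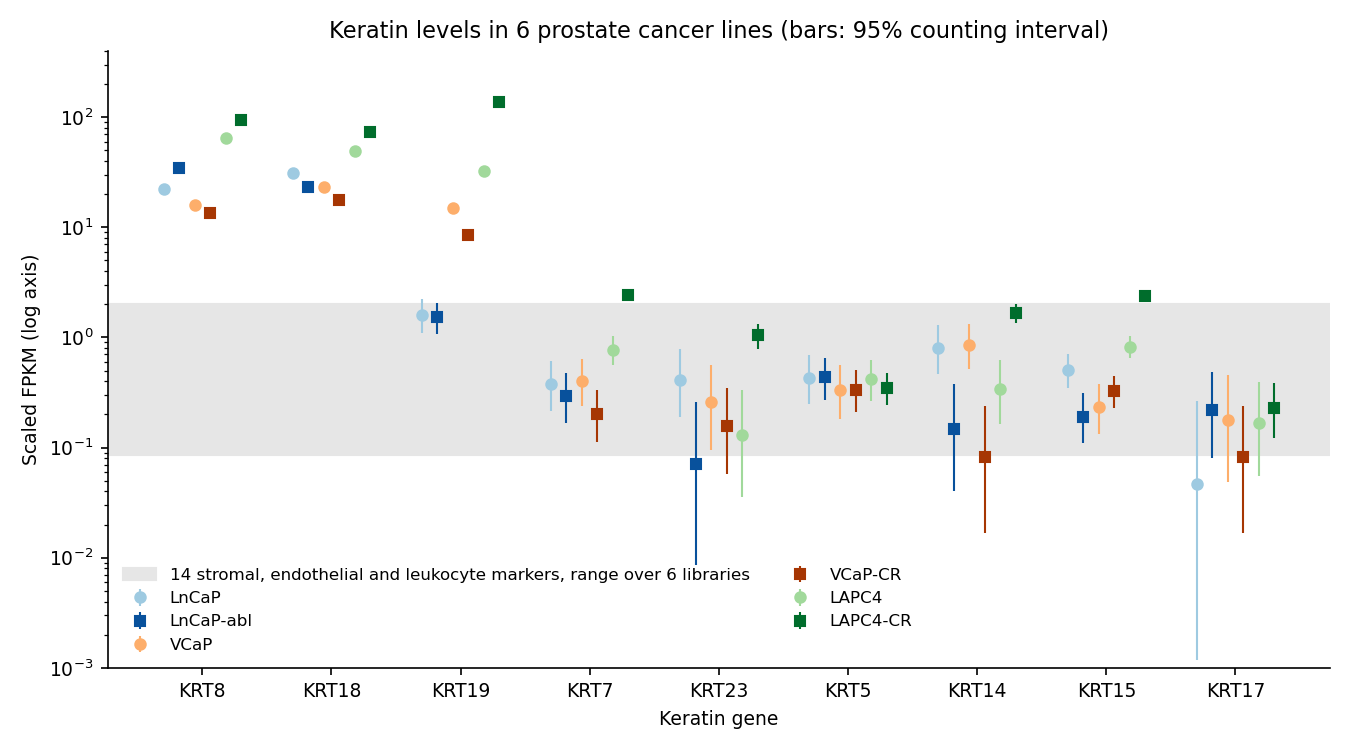
Scaled FPKM (log axis) of the 9 keratin genes in 6 libraries; circles are castration-sensitive and squares castration-resistant lines, bars are exact 95% Poisson intervals, and the grey band spans 14 stromal, endothelial and leukocyte markers (0.0864 to 1.99). KRT8 and KRT18 lie above the band in all 6 libraries and KRT19 in the 4 VCaP and LAPC4 libraries, while the other 6 keratins lie above it only in LAPC4-CR, for KRT7 and KRT15.

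The ductal members were low except in LAPC4-CR. KRT7, a type II keratin of ducts and glands, was at 0.375 scaled FPKM in LnCaP (16 counts) against 0.293 in LnCaP-abl (16), 0.399 in VCaP (18) against 0.203 in VCaP-CR (15), and 0.773 in LAPC4 (46) against 2.43 in LAPC4-CR (279). KRT23, a type I keratin, was at 0.41 (9 counts), 0.0714 (2), 0.259 (6), 0.158 (6), 0.131 (4) and 1.04 scaled FPKM (61) in the same order. For both genes LAPC4-CR was the highest library, and its interval (2.16 to 2.73 for KRT7, 0.792 to 1.33 for KRT23) lay above all others.

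The basal members were below 1 scaled FPKM in all 6 libraries, except KRT14 and KRT15 in LAPC4-CR. KRT5, the basal type II keratin, was at 0.428 scaled FPKM in LnCaP (17 counts) against 0.433 in LnCaP-abl (22), 0.333 in VCaP (14) against 0.334 in VCaP-CR (23), and 0.415 in LAPC4 (23) against 0.347 in LAPC4-CR (37). All 6 intervals overlapped, so the libraries could not be ordered by KRT5. TP63 lay between 0.216 (LAPC4-CR) and 0.442 scaled FPKM (LnCaP-abl), and PTPRC, the common leukocyte antigen, between 0.132 and 0.343.

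KRT14, the partner of KRT5 in basal cells, did not follow KRT5. It was at 0.805 scaled FPKM in LnCaP (17 counts) against 0.148 in LnCaP-abl (4), 0.852 in VCaP (19) against 0.082 in VCaP-CR (3), and 0.34 in LAPC4 (10) against 1.66 in LAPC4-CR (94). The LnCaP and VCaP parents were thus above their resistant lines, with LAPC4-CR the highest library. KRT16, its near copy, is an activation keratin of stressed epidermis and was at 0.263, 0.36, 0.124, 0.379, 0.612 and 1.83 scaled FPKM in the same order, so LAPC4-CR was the highest for both genes.

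KRT15, a type I keratin of basal and stem-like cells, and KRT17, another basal type I keratin, differed from each other. KRT15 was at 0.504 scaled FPKM in LnCaP (33 counts) against 0.191 in LnCaP-abl (16), 0.231 in VCaP (16) against 0.326 in VCaP-CR (37), and 0.822 in LAPC4 (75) against 2.37 in LAPC4-CR (416). KRT17 rested on 1 to 13 counts, at 0.0469, 0.22, 0.178, 0.0813, 0.168 and 0.227 scaled FPKM from LnCaP to LAPC4-CR. LAPC4-CR was the highest library for KRT15, and all 6 intervals of KRT17 overlapped.

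Against the 14 markers of stroma, endothelium and leukocytes, the 6 ductal and basal members did not exceed the highest marker of the same library in LnCaP, LnCaP-abl, VCaP or VCaP-CR (6 of 6 at or below it in each). In LAPC4, KRT7 and KRT15 lay above the highest marker (0.489 scaled FPKM). In LAPC4-CR, KRT7, KRT23, KRT14 and KRT15 did (0.843), while KRT5 and KRT17 stayed below it. These levels depend on the length of the gene model, which is 7069 bases for KRT15 and 2281 for KRT14. The source of reads at the level of these markers was not tested.

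The summed level of the 9 members was alike in the LnCaP pair and parted in the others. It was 57.4 scaled FPKM in LnCaP against 61 in LnCaP-abl, 56.3 in VCaP against 40.9 in VCaP-CR, and 148 in LAPC4 against 311 in LAPC4-CR. KRT8, KRT18 and KRT19 made up nearly all of it, and the 4 basal members together came to 1.2% (LAPC4) to 3.25% (LnCaP) of the 3 luminal ones. The 9 members took 62.6% (VCaP-CR) to 86.1% (LAPC4-CR) of the summed scaled FPKM of all 54 keratins.

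**Figure D2:**
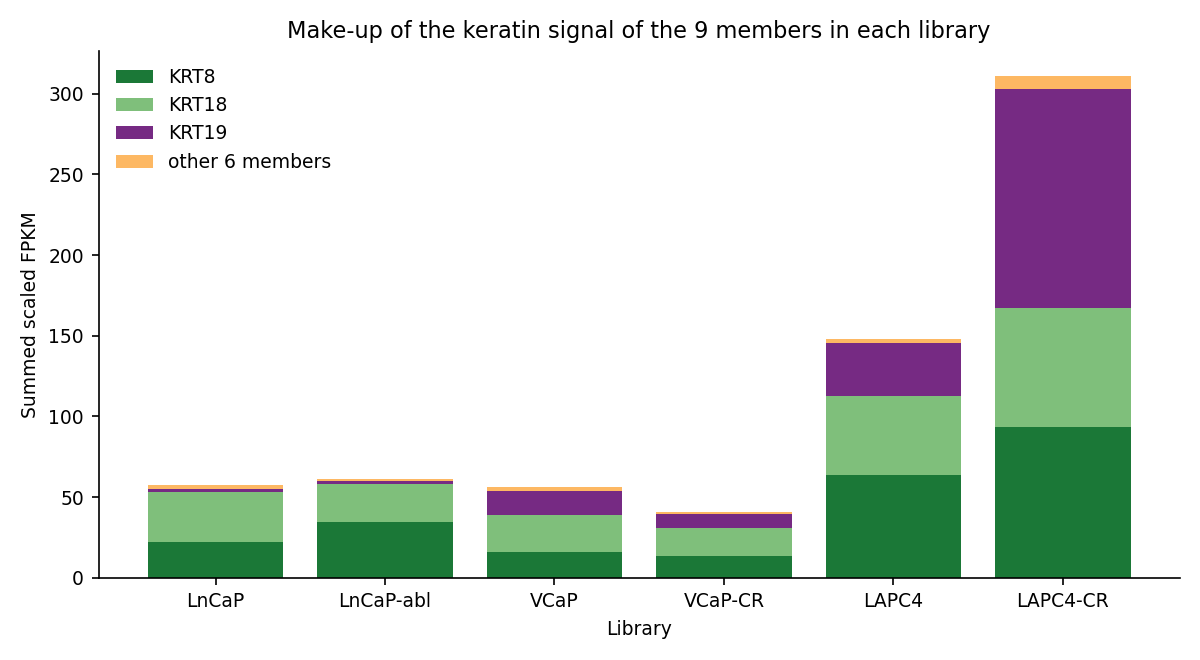
Summed scaled FPKM of the 9 keratins in each library (vertical axis from 0), stacked into KRT8, KRT18, KRT19 and the other 6. The total is 311 in LAPC4-CR, of which KRT19 is 43.8%. It is 61 or less in the LnCaP and VCaP pairs, where KRT19 is 2.48% (LnCaP-abl) to 26.7% (VCaP).

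Which keratin led in scaled FPKM differed by library. KRT18 ranked first of the 9 in LnCaP, VCaP and VCaP-CR, KRT8 in LnCaP-abl and LAPC4, and KRT19 in LAPC4-CR. This order depends on the lengths of the gene models, 5011 bases for KRT8, 3218 for KRT18 and 2232 for KRT19. In counts KRT8 was the highest of the 9 in every library, for example 1025 against 929 for KRT18 in LnCaP. In FPKM, the level of KRT8 over that of KRT18 was 0.709 in LnCaP against 1.49 in LnCaP-abl, 0.678 in VCaP against 0.754 in VCaP-CR, and 1.31 in LAPC4 against 1.27 in LAPC4-CR. Between LnCaP and LnCaP-abl the ratio of KRT8 to KRT18 counts differed 2.1-fold (exact 95% interval 1.86 to 2.37, counting error only), whereas the intervals of the VCaP pair (0.971 to 1.27) and the LAPC4 pair (0.908 to 1.03) held 1. KRT19 relative to KRT18 was 2.78-fold higher in LAPC4-CR than in LAPC4 (2.55 to 3.03) and 0.746-fold in VCaP-CR relative to VCaP (0.618 to 0.9).

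Over all keratins by symbol, type I exceeded type II in scaled FPKM in 5 of 6 libraries. The summed scaled FPKM of the 28 type I genes over that of the 26 type II genes was 1.72 in LnCaP against 0.951 in LnCaP-abl, 2.65 in VCaP against 2.21 in VCaP-CR, and 1.31 in LAPC4 against 2.03 in LAPC4-CR. LnCaP-abl, the exception, is the line in which KRT8 was higher and KRT18 lower than in the parent. In counts, which are not scaled to gene length, type II was above type I in LAPC4 as well (5060 against 3775).

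Whether a keratin differed between the cell lineages was tested with edgeR on the deposited counts, with line and state as terms, Benjamini-Hochberg adjustment over the 16231 genes whose mean reached 1 scaled FPKM and a threshold of 5%. KRT8, KRT18 and KRT19 passed this filter; KRT7, KRT23, KRT5, KRT14, KRT15 and KRT17 did not. KRT8 (edgeR adjusted p 0.017) and KRT19 (0.016) differed between lineages and KRT18 missed the threshold (0.054), beside 12.7% of all tested genes. The call for KRT8 and KRT19 was made in each of 6 fits with 1 library left out, and that for KRT18 was reached in 3 of those 6. The 3 fits that called KRT18 called 22.1%, 17% and 13.3% of all genes, and the others 12.4% or less. DESeq2 called KRT18 as well (adjusted p 0.0042), along with 24.5% of all genes.

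The LAPC4 lineage had the highest fitted level of all 3 members, and 3 of its 6 contrasts with the other lineages were called; the contrasts share libraries and so are not independent of one another. Between the LAPC4 and VCaP lineages, KRT8 was higher in LAPC4 by 2.40 on the log2 scale (SE 0.35, edgeR adjusted p 0.013) and KRT18 by 1.60 (SE 0.37, adjusted p 0.039), where 12.6% of genes were called. Without VCaP-CR the adjusted p of KRT8 was 0.0872, and KRT18 lost the call without VCaP (0.121), VCaP-CR (0.285) or LAPC4-CR (0.144). Between LAPC4 and LnCaP, KRT19 was higher in LAPC4 by 5.66 (SE 0.80, edgeR adjusted p 0.021) against 3.11% of genes called; its adjusted p was 0.0528 without LnCaP-abl. The other 3 contrasts of LAPC4 were not called: KRT8 against LnCaP (1.5, SE 0.34, edgeR adjusted p 0.072), KRT18 against LnCaP (1.20, SE 0.37, 0.14) and KRT19 against VCaP (2.67, SE 0.71, 0.056). Between VCaP and LnCaP, 0 of the 3 tested members were called, against 5.98% of genes: KRT19 was 2.99 higher in VCaP (SE 0.71, adjusted p 0.06), and it was called without VCaP-CR, LAPC4 or LAPC4-CR (adjusted p 0.0206, 0.00276 and 0.00479).

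With no filter on low values, 41666 genes could be tested and all 9 members entered. KRT8, KRT18, KRT19, KRT7 (edgeR adjusted p 0.0043) and KRT15 (0.0037) were then called between lineages, against 11.8% of genes. KRT7 was higher in LAPC4 than in VCaP by 2.40 (SE 0.60, adjusted p 0.0098) and KRT15 by 2.50 (SE 0.58, adjusted p 0.0056). KRT5 (adjusted p 0.95), KRT17 (0.9), KRT14 (0.3) and KRT23 (0.26) were not called. With edgeR's own filter for low counts, KRT7 (0.081) and KRT15 (0.084) missed the threshold, so these 2 calls rest on the choice of genes entered.

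In the comparison the series was designed for, castration resistant against sensitive, edgeR called no gene that passed the filter, keratins included. In edgeR's paired fit, with line as the block, 0 of the 3 tested members were called, as were 0% of all tested genes, and 0 members had an unadjusted p under 0.05. At that unadjusted level 728 genes were higher and 548 lower. The log2 change was 0.34 for KRT8 (SE 0.28, adjusted p 0.78), -0.06 for KRT18 (SE 0.30, adjusted p 0.97) and 0.42 for KRT19 (SE 0.58, adjusted p 0.87). DESeq2, which called 83 genes higher and 55 lower, and limma, which called 0 genes, also called 0 of the 3 members, and without the filter edgeR called 0 of 9 against 0.367% of genes. Without the block the change was 0.17 for KRT18 and 1.59 for KRT19, and 0 members and 0 genes were called.

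Within a pair there is 1 library for each state, so the change is a ratio of scaled counts with an exact conditional binomial 95% interval for counting error, and no test. In LnCaP-abl, KRT8 was above the parent at 1.57-fold (1.46 to 1.7) and KRT18 below it at 0.749-fold (0.683 to 0.822), so the 2 partners of a filament pair parted. KRT19 (0.949-fold, 0.584 to 1.55), KRT7 (0.783-fold) and KRT5 (1.01-fold) had intervals that held 1. KRT14 at 0.184-fold (0.0451 to 0.565), KRT15 at 0.38-fold (0.195 to 0.71) and KRT23 at 0.174-fold (0.0183 to 0.841, from 9 and 2 counts) were lower. Of the 8 members with at least 10 counts in the pair, 3 were at least 2-fold lower with the interval below 1, against 12.1% of genes, and 0 were 2-fold higher, against 7.58%.

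In VCaP-CR the 3 luminal members were all below the parent. KRT8 was at 0.849-fold (0.773 to 0.932), KRT18 at 0.763-fold (0.692 to 0.842) and KRT19 at 0.569-fold (0.485 to 0.667). KRT14 was the only member of 8 past 2-fold, at 0.0963-fold (0.0182 to 0.327, from 19 and 3 counts), against 4.35% of genes lower and 3.69% higher. KRT15 at 1.41-fold (0.765 to 2.72), KRT5 at 1-fold (0.494 to 2.11) and KRT7 at 0.508-fold (0.238 to 1.07) could not be told from the parent by counting error alone. Some neuroendocrine markers were higher in VCaP-CR than in VCaP: 3 of 6 tested were past 2-fold higher on the log2(scaled FPKM + 1) scale, among them CHGA at 21.6 scaled FPKM against 2.37 and SCG3 at 16 against 4.69, beside 2.37% of all tested genes. CHGA and CHGB, both among the 3, passed the filter only through VCaP-CR. The listed markers that were lower were ENO2, at 2.81 against 3.46, and INSM1, at 1.35 against 3.51, which did not pass the filter. The part of these neuroendocrine markers in the keratin values was not tested.

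LAPC4-CR was the pair in which most members were higher. KRT19 was 4.19-fold its parent (3.92 to 4.49), KRT8 1.46-fold (1.41 to 1.51) and KRT18 1.51-fold (1.43 to 1.59). The same direction held for KRT7 at 3.15-fold (2.3 to 4.4), KRT15 at 2.88-fold (2.25 to 3.73), KRT14 at 4.88-fold (2.54 to 10.5) and KRT23 at 7.92-fold (2.94 to 30). KRT5 (0.835-fold, 0.483 to 1.47) and KRT17 (1.35-fold, 0.452 to 4.84) were the 2 members whose intervals held 1. Of 9 members, 7 had an interval above 1 and 5 were past 2-fold, against 6.6% of genes past 2-fold higher and 9.42% lower; the median log2 ratio was 1.53 over the 9 members and -0.14 over 28661 genes. The share of counts in protein-coding genes was 79.5% in LAPC4-CR against 68.3% in LAPC4, 77.4% in LnCaP-abl against 67.8% in LnCaP and 68% in VCaP-CR against 62.8% in VCaP; its part in the keratin ratios was not tested.

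**Figure D3:**
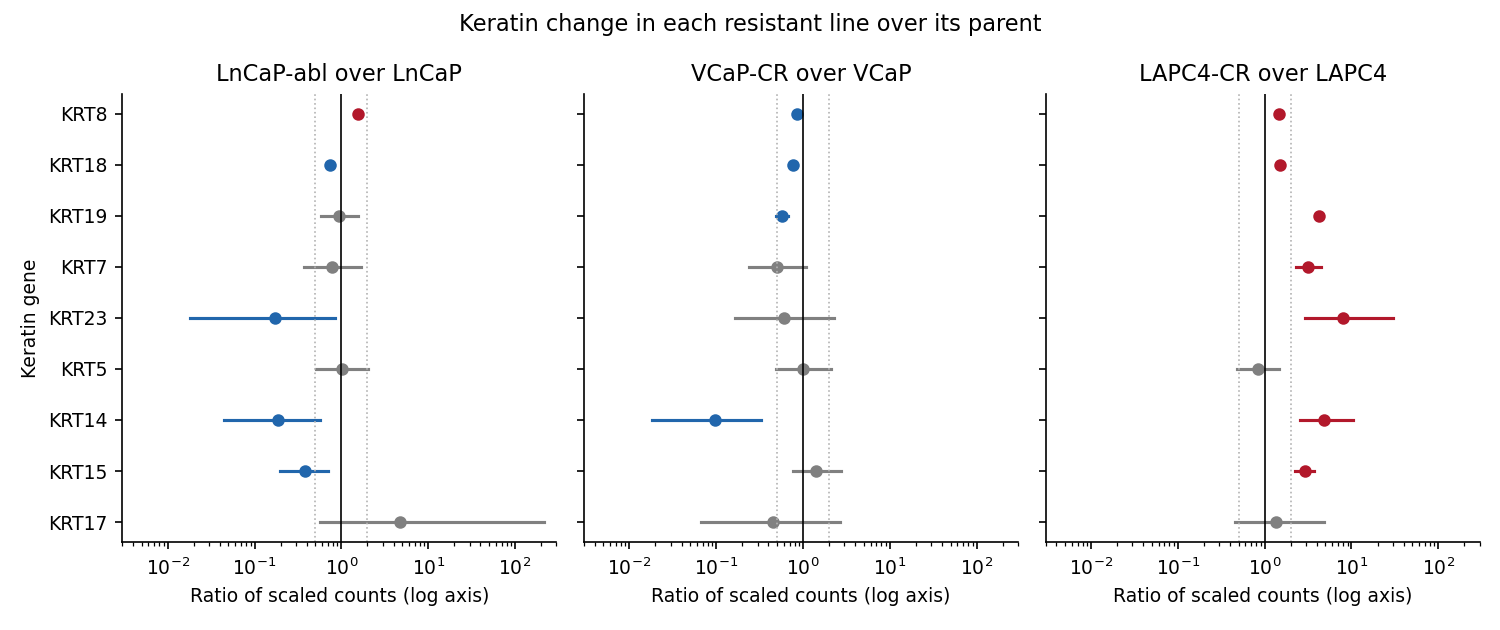
Ratio of scaled counts, resistant over parental line (log axis), for the 9 keratins in each of the 3 pairs; bars are exact 95% counting intervals, red and blue mark intervals above and below 1, and dotted lines mark 2-fold. In LAPC4-CR 7 of 9 intervals lie above 1, whereas in LnCaP-abl 4 and in VCaP-CR 4 lie below 1.

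On the log2(scaled FPKM + 1) scale, which damps changes of low genes, fewer members pass 2-fold. KRT19 in LAPC4-CR, with a difference of 2.03, was the only one; 5.22% of tested genes were 2-fold higher and 5.28% lower there. KRT14 reached 0.99, KRT7 0.95, KRT15 0.89 and KRT23 0.85 in the same pair. No member passed 2-fold in LnCaP-abl, where 6.23% of tested genes were higher and 6.19% lower, or in VCaP-CR, where 2.37% were higher and 2.03% lower.

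Counts were also listed under pseudogene copies of the members; whether these are reads of the genes or transcripts of the copies was not tested. For KRT8, 37 entries named KRT8P held 32.8% (LnCaP-abl, exact binomial 95% interval 31.2 to 34.5) to 40.6% (VCaP-CR, 38.3 to 42.9) of the counts of gene and copies together. For KRT18, 33 entries held 24.9% (LAPC4, 23.3 to 26.6) to 27.9% (VCaP-CR, 25.5 to 30.5). KRT19 had 1 listed copy, KRT19P3, with 0.326% (VCaP-CR) to 13.2% (LnCaP, 5 of 38 counts). KRT8P45 was at 8.21, 8.65, 5.09, 5.69, 23.4 and 38.3 scaled FPKM in the order LnCaP to LAPC4-CR, highest in the LAPC4 pair as KRT8 is.

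The copies changed within pairs in much the same way as the genes. KRT8 copies stood at 1.28-fold in LnCaP-abl (1.15 to 1.41), below the 1.57-fold of the gene, at 0.924-fold in VCaP-CR and at 1.53-fold in LAPC4-CR. KRT18 copies stood at 0.686-fold, 0.814-fold and 1.52-fold. When copies and gene were summed, KRT8 was at 1.46-fold (1.38 to 1.55) in LnCaP-abl and KRT18 at 0.732-fold (0.676 to 0.792), so the parting of the partners remained. The lineage calls for KRT8 and KRT19 were also made on the summed counts (edgeR adjusted p 0.015 and 0.017).

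**Figure D4:**
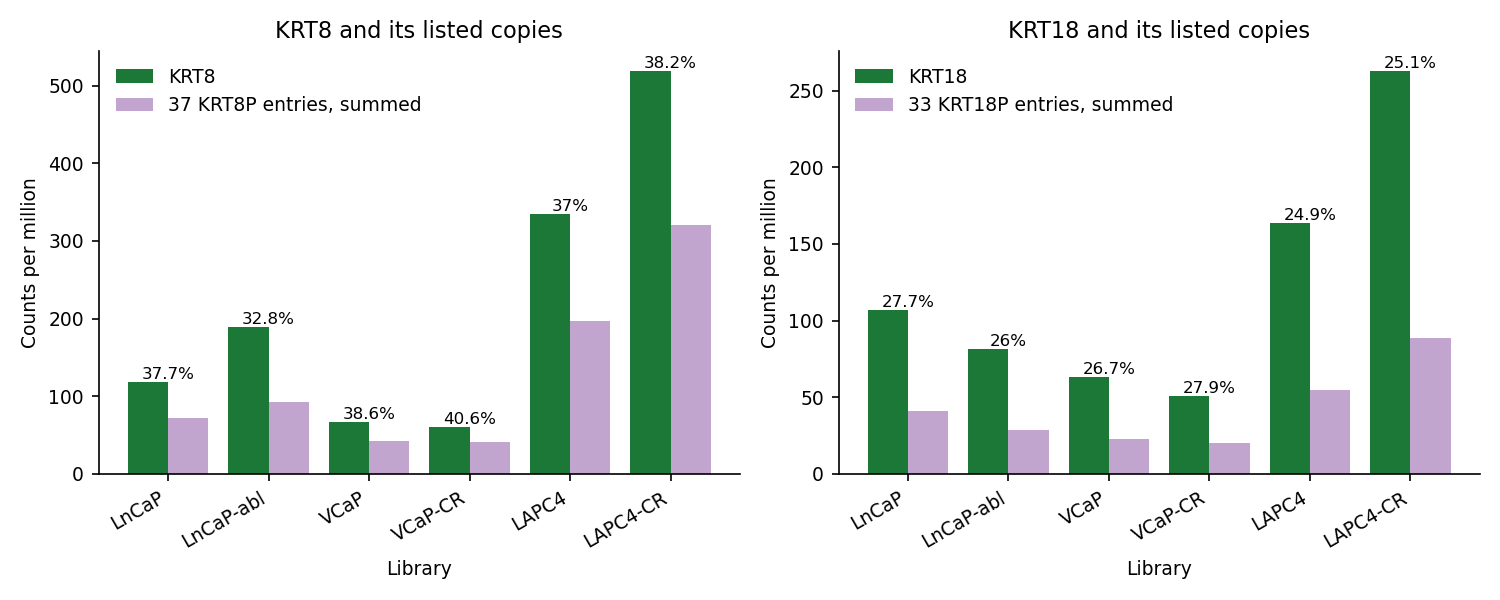
CPM (counts scaled to the library total, axis from 0) of KRT8 and KRT18 and of their listed pseudogene copies, summed, in each library; the percentage above each pair of bars is the share of counts lying in the copies. That share stays within 32.8% to 40.6% for KRT8 and 24.9% to 27.9% for KRT18 while the gene itself varies from 59.9 to 519 and from 51 to 263 CPM.

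The patterns most like those of the abundant members were sought among 6392 protein-coding genes, by Pearson's r of log2(scaled FPKM + 1) over the 6 libraries, which share 3 lineages; the r values are descriptions. NOTCH3, a Notch receptor, was closest to KRT8 (r 0.997), at 4.55, 8.04, 2.61, 2.5, 14.2 and 20.1 scaled FPKM from LnCaP to LAPC4-CR, followed by SLC44A2 (0.995) and GALK1 (0.994). APOA1BP (0.993), ETAA1 (0.991) and COX10 (0.989) were closest to KRT18. CD9, a tetraspanin of the cell surface, was closest to KRT19 (r 0.996), at 69.8, 74, 103, 89.8, 114 and 150 scaled FPKM, followed by MZT1 (0.988) and BET1 (0.984). Among the members themselves, r was 0.921 between KRT8 and KRT18, 0.973 between KRT7 and KRT15, and -0.285 between KRT5 and KRT14.

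Desmosomes anchor keratin filaments at cell contacts, and 12 of 15 listed desmosome genes were tested. By edgeR, DESeq2 and limma 0 were called between the states, with DSP alone at an unadjusted p under 0.05 in each, 8 of 12 had a positive change, and their median log2 change was 0.24, against -0.01 over all tested genes. DSP, the desmoplakin that binds keratin directly, was at 15.4 scaled FPKM in LnCaP against 17.4 in LnCaP-abl, 4.52 in VCaP against 14.5 in VCaP-CR, and 8.32 in LAPC4 against 32.6 in LAPC4-CR (edgeR log2 change 1.30, SE 0.40, adjusted p 0.59). In LnCaP-abl, where KRT8 and KRT18 parted, 2 of the 12 tested desmosome genes were past 2-fold lower, against 6.19% of tested genes. These were the desmosomal cadherins DSC2, at 0.597 against 66 scaled FPKM, and DSG2, at 7.17 against 80.4. Both were singled out after their values were seen. DSC1, a listed cadherin that did not pass the filter, was also past 2-fold lower there (0.139 against 1.42). In LAPC4-CR 3 desmosome genes were past 2-fold higher, against 5.22% of tested genes, and in VCaP-CR, where the luminal keratins were lower, also 3 (DSG1, DSG2 and DSP), against 2.37%. DSG1, at 15.4 scaled FPKM in VCaP-CR and at most 0.863 elsewhere, passed the filter only through VCaP-CR, so that library set its place in the count. In LAPC4-CR, JUP, which overlaps KRT17, was at 30.9 against 18.

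Among 11 tested filament organisers edgeR called 0 between the states, with 3 higher and 1 lower at an unadjusted p under 0.05; DESeq2 called 2, DST and AHNAK, and limma 0. Of the 11, 6 had a positive change (median 0.15), with AHNAK at 76 scaled FPKM in LAPC4-CR against 22.5, and EPPK1, the keratin-binding epiplakin, at 1.51 in LnCaP-abl against 13 (edgeR adjusted p 0.59 and 0.63). Of 7 tested intermediate filament genes of other types, 0 were called by edgeR, DESeq2 or limma, 0 had an unadjusted p under 0.05 and 5 had a positive change (median 0.13). VIM, the vimentin gene of mesenchymal cells, did not pass the filter and lay between 0.239 and 1.1 scaled FPKM, below KRT8 and KRT18 in each of the 6 libraries.

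Markers of the cell types to which the keratins belong were set beside them. Of 16 tested luminal markers edgeR called 0 between the states (2 higher and 3 lower at an unadjusted p under 0.05; DESeq2 called KLK3 and limma 0), 6 had a positive change, and the median was -0.29. In LAPC4-CR 6 were past 2-fold lower and 2 higher, against 5.28% and 5.22% of tested genes, while KRT8, KRT18 and KRT19 were all above the parent. HOXB13, a prostate lineage factor, was at 1.6 scaled FPKM in LAPC4-CR against 31.3, and MUC1, a mucin of glandular surfaces, at 25.3 against 0.198. Both were singled out after their values were seen. MUC1, counted among the 2 higher markers, passed the filter only through LAPC4-CR, with at most 0.523 scaled FPKM elsewhere. Of 12 tested basal markers edgeR called 0 (3 higher and 1 lower at an unadjusted p under 0.05; DESeq2 called DST and limma 0), and 6 had a positive change (median -0.01). In LAPC4-CR 1 basal marker was past 2-fold higher and 4 lower, against the same shares, while KRT14 and KRT15 were above the parent. ITGA6 was the higher one (25 against 7.26 scaled FPKM). The lower ones were NGFR (4.21 against 23.4), EGFR (1.36 against 8.95), CDH3 (6.09 against 15) and JAG1 (0.601 against 3.37). At an unadjusted edgeR p under 0.05 between the states, ITGA6, ITGB4 and DST were higher and NGFR lower.

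Club and hillock cells are intermediate cells of the prostatic ducts that share keratins with luminal cells. Of 16 listed markers 7 were tested and 0 were called by edgeR, DESeq2 or limma (2 higher at an unadjusted p under 0.05 in edgeR), while 5 were past 2-fold higher in LAPC4-CR against 5.22% of tested genes. CEACAM6 and CEACAM5, both among the 5, passed the filter only through LAPC4-CR, so that library set their place in the count. CEACAM6, a cell surface adhesion molecule, was at 1.06 scaled FPKM in LAPC4 and 66.8 in LAPC4-CR and at most 0.68 elsewhere (edgeR log2 change 1.43, SE 1.88, adjusted p 0.87). CEACAM5 was at 0.412 and 8.19 in the LAPC4 pair. The secretoglobin SCGB1A1, which defines club cells, was at 0.266 scaled FPKM in LAPC4 and 0 in LAPC4-CR, and LTF at 0.164 and 0.123, so the defining club markers were near the level of leukocyte markers in this pair. In edgeR, neuroendocrine markers gave 0 calls between the states among 6 tested (1 at an unadjusted p under 0.05), and regulators of epithelial identity 0 among 22 (2 at that level; DESeq2 called NOTCH2), with 16 positive and a median of 0.21.

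**Figure D5:**
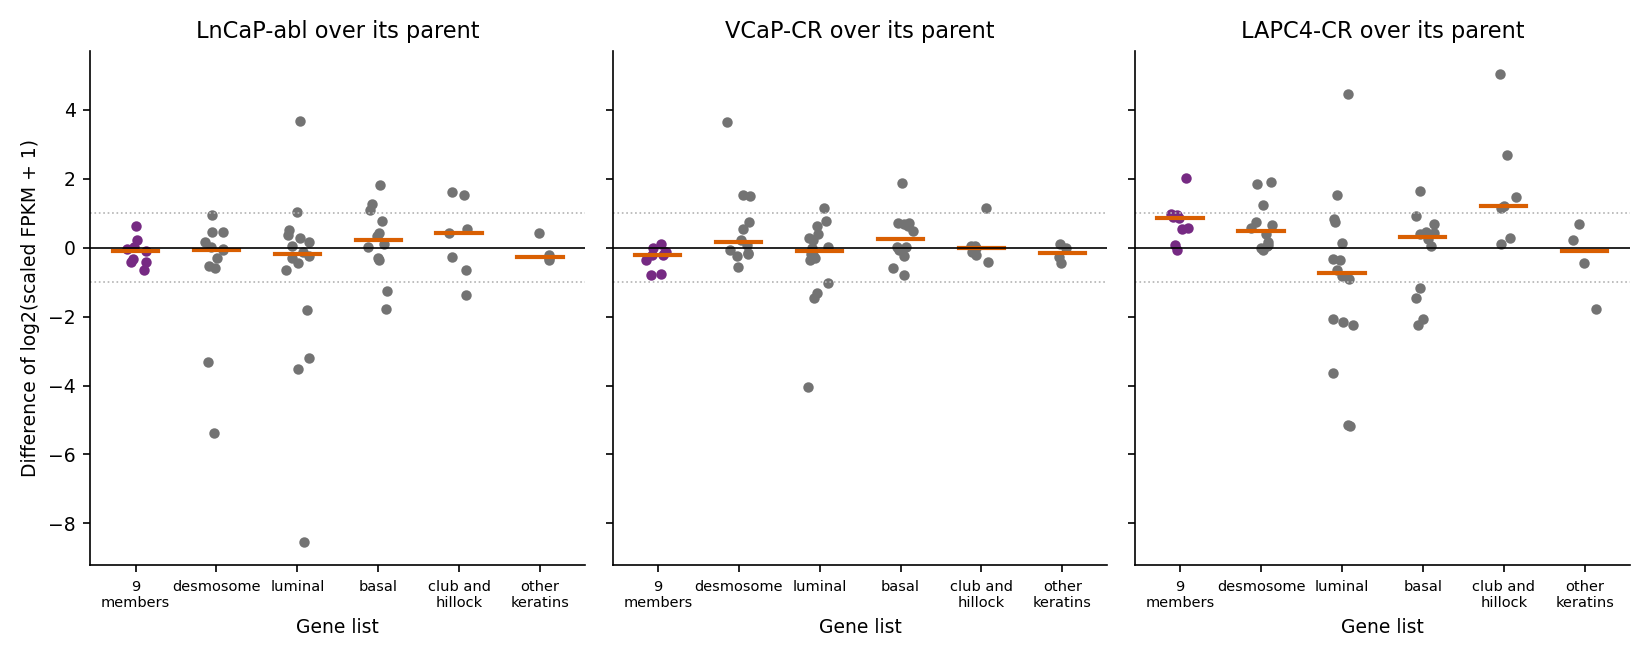
Difference of log2(scaled FPKM + 1), resistant minus parent, for the 9 keratins (purple) and the tested genes of 5 lists (grey) in each pair; orange bars are medians and dotted lines mark 2-fold. In LAPC4-CR the luminal marker median is -0.74 and the club and hillock median 1.22. Some genes shown passed the filter only through the resistant library: CEACAM6, CEACAM5 and MUC1 through LAPC4-CR, and DSG1 through VCaP-CR. KRT19 is the only one of the 9 keratins past 2-fold there, and KRT26, of the other keratins, is at -1.77.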

How the data were processed

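Per the labels' protocols, RNeasy kits gave the total RNA of 6 cell lines, and SOLiD Total RNA-Seq kits the libraries. HTSeq and the build hg18 are named, without role or version, in the submitters' processing notes. The sources used here do not give the aligner, the annotation, the strand setting or the handling of multiply matching reads. The authors deposited, per the file headers, a count and an FPKM value for each of 51698 gene entries. FPKM was rebuilt within 1% from the deposited count, gene length and summed count for 100% of entries above 1 FPKM; gene length is a column of 5 tables. Starts are counted from 0 in the tables, and 1 was added.

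Entries of small RNA classes (8763) were left out and entries sharing a symbol summed, which left 42887 symbols. Scaled FPKM is the deposited FPKM over a library factor, a median of ratios to the genes' geometric means, taken from 11600 genes that reach 1 FPKM in each library. The filter of a mean of at least 1 scaled FPKM left 16231 genes, 11341 of them protein-coding. Counts were tested with edgeR 4.0.16 (quasi-likelihood test, TMM, R 4.3.3), with DESeq2 1.42.0 and limma 3.58.1 as alternatives; adjusted p-values are Benjamini-Hochberg over all genes tested. Pairs come from the line names, since each resistant line carries its parent's name, and the line is the block of the state test. With 1 library per line, p-values from fits with line and state as terms rest on how far the change from parent to resistant line varied among the 3 pairs. They describe these libraries only. Local alignments used Biopython 1.88 and intervals SciPy 1.17.1.

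All 9 members are named. From the lists, the 3 genes with the largest absolute edgeR change and those past 2-fold one way in all pairs are named, others as defining markers or where said. Listed keratins at 1 scaled FPKM in any library are named too. The members and lists were chosen with earlier results of these data known, so they lend no independent support. Other lists are described by counts and medians alone. Depth limits the 6 low members, which rest on 1 to 416 counts, and intervals cover counting error only.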

Additional observations from a re-analysis of the deposited data

Results flagged for a closer look

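Several members stood above the parent in one pair and below it in another, each by more than counting error. The differences between pairs were not tested, since each pair has 1 library for each state. For KRT8 the log2 ratio in LnCaP-abl exceeded that in VCaP-CR by 0.89, and that in LAPC4-CR exceeded it by 0.78. For KRT18 the LAPC4-CR ratio was above that of LnCaP-abl by 1.01 and above that of VCaP-CR by 0.98. KRT19 differed between LAPC4-CR and VCaP-CR by 2.88.

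Among the low members, KRT14 differed by 4.73 between LAPC4-CR and LnCaP-abl and by 5.66 between LAPC4-CR and VCaP-CR, with 3 counts in VCaP-CR. KRT23 differed by 5.51 between LAPC4-CR and LnCaP-abl, with 2 counts in LnCaP-abl, and KRT15 by 2.92. LAPC4-CR was the deepest library and the part of depth in these values was not tested.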

How the results depend on the processing

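No member was called between the states under any of 12 alternatives, but 7 of these called 0 genes of any kind, so the 0 says little about stability. Lineage calls numbered 2 or 3 except without a filter on low values, where 5 members were called. With the replicate block left out, the state change was 0.17 for KRT18 and 1.59 for KRT19. For KRT18 it was 0.10 with no filter, 0.003 with edgeR's own filter and -0.39 to 0.12 with 1 pair left out (0.12 without the LnCaP pair, 0.12 without the VCaP pair). With 1 pair left out the KRT19 change was -0.47 to 1.12, with the negative value without the LAPC4 pair. The cause was not tested.

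Counts of members past 2-fold within a pair were the least stable results. In LAPC4-CR 1 was higher, but 5 at 1.5-fold, with a pseudocount of 0.25, in CPM or by ratio and interval, and 3 without the library factor. In LnCaP-abl 0 were lower, but 1 at 1.5-fold or in CPM, 2 with a pseudocount of 0.25 and 3 by ratio and interval; 1 was higher at 1.5-fold. In VCaP-CR 0 were lower, but 2 at 1.5-fold and 1 with a pseudocount of 0.25, in CPM or by ratio and interval. Of 135 member changes recomputed within pairs, 124 moved by less than counting error and 0 changed sign. The left-out libraries, edgeR's own filter, the summed copies and the ratio rule were chosen after seeing the data.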

Other observations

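Of the 45 keratins that are no members, 34 were below 1 scaled FPKM in every library. KRT10, best known from differentiated epidermis, was the highest of the rest, at 11.4 scaled FPKM in LnCaP against 8.76 in LnCaP-abl, 12.8 in VCaP against 10.5 in VCaP-CR, and 16.6 in LAPC4 against 19.6 in LAPC4-CR. KRT80, a type II keratin, was at 11.1 in LAPC4 and 18.5 in LAPC4-CR and at most 1.46 elsewhere, so it shared with KRT8, KRT18 and KRT19 its highest levels in the LAPC4 pair.

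Low keratins with the widest ratios were KRT2, a keratin of upper epidermis, with 3 counts in LnCaP and 39 in LnCaP-abl and 10 in VCaP against 51 in VCaP-CR, and KRT26, a hair follicle keratin, with 77 counts in LAPC4 and 13 in LAPC4-CR. KRT16 stood at 13 counts in LAPC4 and 75 in LAPC4-CR. KRT24 lay at 2.61 and 2.92 scaled FPKM in the VCaP pair and at most 0.618 elsewhere. KRT12 (1.55 in LnCaP), KRT20 (1.35 in LAPC4-CR), KRT72 (1.2 in LnCaP), KRT83 (1.2 in LAPC4) and KRT13 (1.03 in VCaP-CR) reached 1 scaled FPKM in at least 1 library, with these highest values.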
